A study of Drosophila melanogaster with 35 samples.

Results

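Whole male flies of Drosophila melanogaster that had drunk hydrogen peroxide were compared directly with flies that had been given ionizing radiation, on 8 of the 35 arrays of a study of aging and stress. The members were chosen by title alone: the 4 arrays titled Hydrogen peroxide were set against the 4 titled Ionizing radiation, and 4 Sugar and 4 Stress controls arrays served as unexposed flies. Each array was an Affymetrix Drosophila genome chip, hybridised with labelled RNA from the flies of 1 vial, so the replicates were separate vials. All groups were males from a cross of Oregon-R with a w[1118] strain, so that they carried 1 copy of the rtTA transgene insertion P{w+ rtTA}(3)[E2], controls included.

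The Hydrogen peroxide flies spent 2 days in vials with 1% sucrose and 3% hydrogen peroxide. The Ionizing radiation flies were irradiated in food vials at 5666 rads/hour for 16 hours and then spent 2 days in 1% sucrose vials. Both were 11 days old when their RNA was taken, with 25 flies per vial. Sugar flies, also 11 days old with 25 flies per vial, had 2 days in sucrose vials alone, and Stress controls were 9 days old. The treatments therefore differed in agent, in route (swallowed against whole body) and in schedule (RNA at the end of the exposure against RNA after a recovery), and these cannot be told apart.

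Hydrogen peroxide is a small oxidant that cells clear with catalase and peroxidases, and a fly that drinks it meets it first in the gut. Ionizing radiation breaks DNA strands throughout the body, and cells answer by joining the ends directly, through the Ku proteins and DNA ligase 4, or by copying an intact strand. In an adult male fly few somatic cells divide, the main exceptions being the stem cells of the gut, while the testis holds cells in mitosis, in meiosis and in sperm assembly. RNA came from whole animals, so fewer cells of a type and less RNA per cell cannot be told apart.

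Signals below are quantile normalised MAS5 intensities with no unit, and log2 fold changes are Hydrogen peroxide minus Ionizing radiation on the log2(signal + 38.9) scale, so a positive value is higher in Hydrogen peroxide. The pseudocount shrinks the changes of dim genes. A gene was called at an adjusted p under 0.01 (limma, Benjamini-Hochberg over all probe sets) and a fold change of at least 1.5. Arrays of 1 treatment correlated at r = 0.945 to 0.979, and arrays of different treatments at 0.901 to 0.946. Ionizing radiation replicate 1 stood apart: its 3′ to 5′ signal ratio, which rises as RNA breaks down, was 7.44 for the actin control probe sets, 3.72 for Gapdh and 8.62 for eIF-4a, against 1.79 to 1.89, 2.18 to 2.31 and 2.73 to 3.06 on the other Ionizing radiation arrays. Hydrogen peroxide arrays lay at 1.88 to 2.34 for actin, 1.88 to 2.19 for Gapdh and 2.49 to 3.02 for eIF-4a. Exact two-sided permutation p values were 0.971, 0.0571 and 0.257 in that order (n = 4 each, smallest possible p = 0.0286). The Gapdh ranges of the treatments barely overlapped, and tests of this size cannot show that RNA quality was balanced. Counts are therefore also given without Ionizing radiation replicate 1. The 18S control signal was 2195 to 15693 on the Hydrogen peroxide arrays and 554 to 6936 on the Ionizing radiation arrays (exact two-sided permutation p = 0.0857, n = 4 each). The 4 Sugar arrays were deposited on a lower overall scale (trimmed mean signal of 106 to 166, against 992 to 995 on the 8 treated arrays), which quantile normalisation removed, so values against Sugar also carry that step. The testis markers betaTub85D, dj and Mst84Dc were at high signal on all 8 arrays, as the label of male flies requires.

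Hydrogen peroxide and Ionizing radiation flies differed in 1073 of 10845 genes, a background of 9.89% called. Of these, 540 genes (4.98%) were higher in Hydrogen peroxide and 533 (4.91%) were lower, around a median log2 fold change of -0.01 over all genes. The 4 and 4 arrays did not overlap for 496 of the higher and 475 of the lower genes, while over all genes, called or not, 11.7% lay wholly higher and 10.4% wholly lower. The change was at least 2-fold for 193 higher and 218 lower genes, and at least 4-fold for 15 and 16. Without Ionizing radiation replicate 1 the counts were 481 higher and 445 lower, and with the 8 arrays alone in the model, which then has 6 residual degrees of freedom in place of 27, they were 213 and 175.

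**Figure D1:**
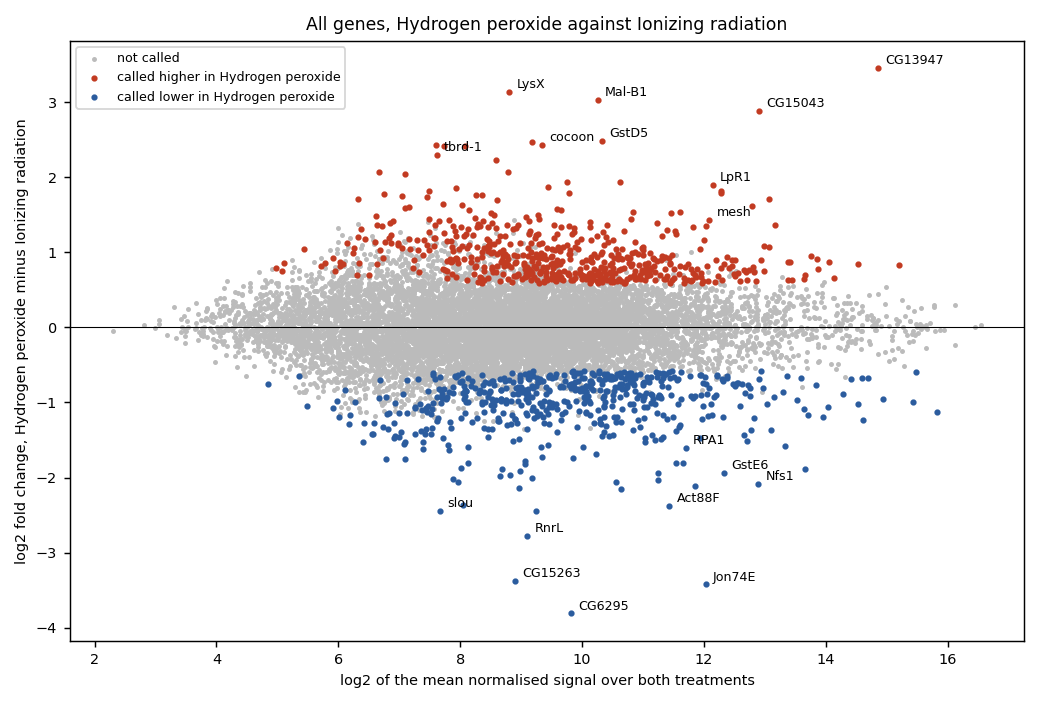
Each point is 1 gene, with the log2 of its mean signal over both treatments on the x axis and the log2 fold change, Hydrogen peroxide minus Ionizing radiation, on the y axis. Red points are the 540 genes called higher in Hydrogen peroxide, blue points the 533 called lower, and CG13947 (3.46) and CG6295 (-3.81) lie at the far ends among the labelled genes.

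Some genes that join or copy broken DNA were lower in Hydrogen peroxide flies than in Ionizing radiation flies. Of 37 measured DNA repair and checkpoint genes, 8 were called lower and 0 higher, against backgrounds of 4.91% and 4.98%, with a list median of -0.25. The other 29 were not called, and 13 of the 37 had positive fold changes, up to 0.60. RnrL, the large subunit of ribonucleotide reductase that makes the building blocks of DNA, had signals of 39.1, 93.2, 105 and 259 in Hydrogen peroxide and 1231, 975, 920 and 756 in Ionizing radiation. No Hydrogen peroxide array reached the lowest Ionizing radiation array (log2 fold change -2.78 ± 0.43 SE, adjusted p = 1.8e-05), and Sugar flies averaged 101.

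The Ku partners moved alike. Irbp, the fly Ku70, had 268, 335, 226 and 87.4 in Hydrogen peroxide and 922, 736, 833 and 868 in Ionizing radiation (-1.82 ± 0.38, adjusted p = 0.00068). Ku80 had 202, 271, 170 and 311 in Hydrogen peroxide, against 583, 608, 629 and 695 in Ionizing radiation (-1.30 ± 0.16, adjusted p = 6.14e-07). DNAlig4, the ligase that seals the ends Ku holds, averaged 270 ± 40.3 in Hydrogen peroxide and 681 ± 71.8 in Ionizing radiation (SD, n = 4 each), a log2 fold change of -1.22. All 3 end-joining genes were thus without overlap between the treatments, and their Hydrogen peroxide signals differed from Sugar by 0.34 log2 units or less. Against Stress controls, Hydrogen peroxide stood at 0.78 for Irbp (adjusted p = 0.128), 0.60 for Ku80 (adjusted p = 0.00478) and -0.0011 for DNAlig4 (adjusted p = 0.998). The break sensor mre11 had 552, 877, 693 and 830 in Hydrogen peroxide and 1373, 1525, 1484 and 1618 in Ionizing radiation. Its partner rad50 (-0.92), the translesion polymerase subunit PolZ1 (-0.96) and the nuclease partner Ercc1 (-0.78) completed the 8. For mre11, which was without overlap, Hydrogen peroxide also lay 0.64 above Sugar (adjusted p = 0.00102), with Ionizing radiation 1.65 above it. Without Ionizing radiation replicate 1, 7 of the 8 were called (rad50 had an adjusted p of 0.013), and with the 8 arrays alone 5 were. rad50 also lost its call without Hydrogen peroxide replicates 3 or 4 or Ionizing radiation replicate 4 (adjusted p = 0.0119 to 0.0163).

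Replication protein A, the trimer that coats single-stranded DNA, was searched for after these values were seen. Its largest subunit RPA1 had 1546, 1617, 1649 and 1677 in Hydrogen peroxide and 4273, 4890, 5452 and 5467 in Ionizing radiation, a log2 fold change of -1.60 ± 0.10 (adjusted p = 7.76e-13). RPA2 (-1.27) and RPA3 (-0.78) were called in the same direction, so all 3 subunits were lower in Hydrogen peroxide. Of the clamp loader genes, which open the sliding clamp at the primer, RfC4 was called (-1.01). In the combined set of 8 measured genes 4 were lower (50%, against 4.91% over all genes) and 0 higher. As the set was gathered after values were seen, that share is not a test. The counts were the same without Ionizing radiation replicate 1, and 3 genes remained with the 8 arrays alone (RPA2 had an adjusted p of 0.019). Another, dim probe set of RPA1 showed no such gap (115 in Hydrogen peroxide and 92.5 in Ionizing radiation, adjusted p = 0.67).

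In the p53 target and cell death list, 13 of 18 genes were measured and 0 were called in either direction, with a median of -0.13. The called repair genes above are not in this list, so it does not speak for them. p53 itself averaged 707 ± 59.4 in Hydrogen peroxide and 506 ± 122 in Ionizing radiation (0.48, adjusted p = 0.139). It lay above Sugar in Hydrogen peroxide (0.80, adjusted p = 0.00609) and was not separated from it in Ionizing radiation (0.33, adjusted p = 0.324). Gadd45, a stress gene, averaged 1109 ± 189 in Hydrogen peroxide and 1211 ± 187 in Ionizing radiation, against 455 in Sugar. Corp, which encodes a p53 regulator, averaged 446 ± 43.4 and 581 ± 136 in those treatments in the same order, against 200 in Sugar. Gadd45 and Corp lay above Sugar in both treatments (log2 fold changes of 1.21 and 1.02 in Hydrogen peroxide and of 1.33 and 1.35 in Ionizing radiation). These contrasts share the Sugar arrays.

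**Figure D2:**
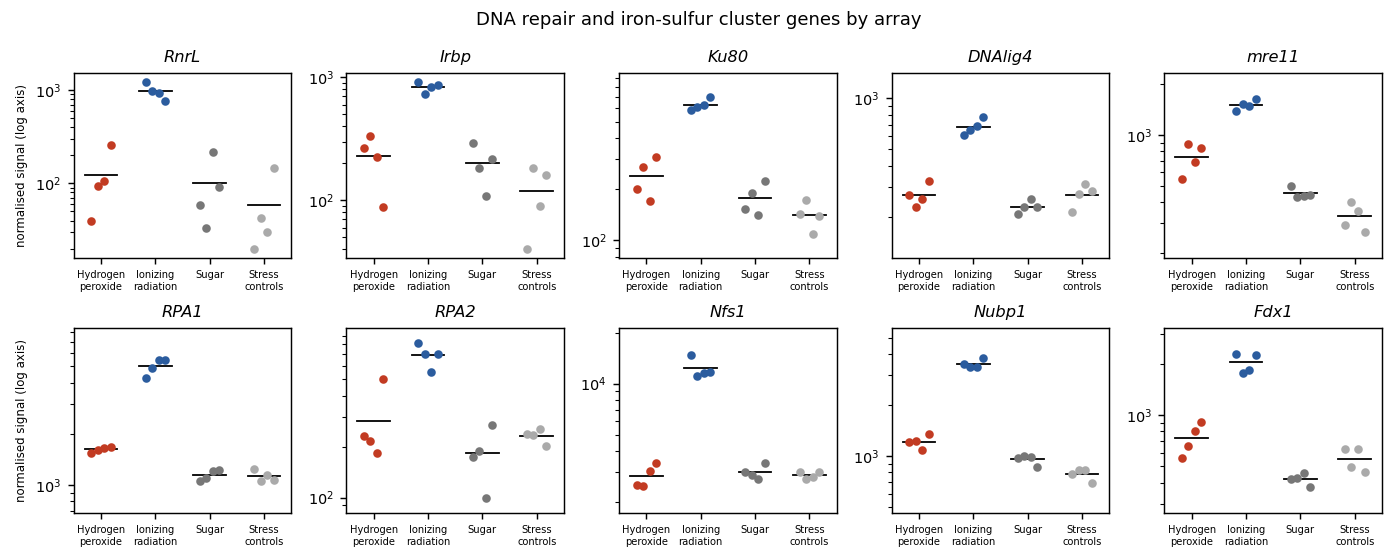
Each panel shows 1 gene, with the normalised signal on a log axis and 1 point per array for Hydrogen peroxide, Ionizing radiation, Sugar and Stress controls (4 arrays each), and a line at the mean. In each of the 10 panels the Hydrogen peroxide points lie below the Ionizing radiation points without overlap.

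Several genes that assemble iron-sulfur clusters, cofactors of respiratory and DNA-repair enzymes, were lower in Hydrogen peroxide. These genes were gathered after Nfs1 was seen among the largest changes. Nfs1, the cysteine desulfurase that supplies the sulfur, had 2533, 2490, 3060 and 3379 in Hydrogen peroxide and 14807, 11022, 11616 and 11676 in Ionizing radiation. The gap was -2.09 ± 0.10 (adjusted p = 4.25e-16), and the Sugar mean of 3000 lay within the Hydrogen peroxide range. Fdx1, a ferredoxin of mitochondria, averaged 732 ± 158 in Hydrogen peroxide and 2041 ± 281 in Ionizing radiation (-1.45). Nubp1, a scaffold of the cytosolic pathway, averaged 1215 ± 107 and 3495 ± 202 in the same order (-1.50). Hsc70-5, the mitochondrial Hsp70, had 2404, 2371, 2391 and 1245 in Hydrogen peroxide and 5159, 5371, 6368 and 6092 in Ionizing radiation (-1.48). Here the unexposed groups differed from each other (Sugar minus Stress controls 0.78, adjusted p = 0.00255). Sugar, at 4773, was closer to Ionizing radiation, and Stress controls, at 2776, were closer to Hydrogen peroxide. The scaffold gene IscU (-0.67) and bcn92, whose product is the small partner of the desulfurase (-0.79), were also called. In all, 6 of 13 measured genes of cluster assembly were lower in Hydrogen peroxide (46.2%, against 4.91% over all genes) and 0 higher. As the set was gathered after Nfs1 was seen, that share is not a test. The list median was only -0.24, and the 6 calls stood without Ionizing radiation replicate 1. IscU was not called without Hydrogen peroxide replicate 4 (-0.55, under 1.5-fold).

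Small heat shock genes split by member. Hsp26 had 3579, 4326, 3727 and 5070 in Hydrogen peroxide and 1343, 1341, 1805 and 2700 in Ionizing radiation (1.24 ± 0.23, adjusted p = 0.000139). Hsp27 followed with 1.01 and Hsp68, a stress-inducible Hsp70 relative, with 0.98. In the other direction l(2)efl, an alpha-crystallin family chaperone, had 14807, 15760, 13584 and 18645 in Hydrogen peroxide, against 31164, 33762, 29861 and 32149 in Ionizing radiation (-1.02 ± 0.12, adjusted p = 2.5e-07), with Sugar at 5150. A probe set that Hsp22 shares with CG4456 showed a wider gap, with 2991, 2730, 2507 and 2462 in Hydrogen peroxide and 25295, 24664, 29478 and 31164 in Ionizing radiation (-3.35 ± 0.18, adjusted p = 9.17e-15). The Sugar mean for that probe set was 2471, so its Hydrogen peroxide arrays were near the unexposed ones, but which of its genes it reports cannot be told apart. Of 8 inducible heat shock genes 3 were higher and 1 lower, and without Ionizing radiation replicate 1 Hsp68 lost its call (adjusted p = 0.0409), leaving 2 higher. Hsp68 also lost it without Ionizing radiation replicate 2 (adjusted p = 0.0339), without replicate 3 (adjusted p = 0.0107), and without any 1 of the Hydrogen peroxide replicates (adjusted p = 0.0112 to 0.0298). Hsp70, with its copies merged, did not separate them (2554, 2483, 2470 and 3088 in Hydrogen peroxide, 1454, 1285, 2898 and 3730 in Ionizing radiation, log2 fold change 0.31, adjusted p = 0.615), although both lay far above the Sugar mean of 109.

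Several genes of spermatocytes, the germ cells that grow before meiosis, were higher in Hydrogen peroxide than in Ionizing radiation. They were collected after several appeared among the largest changes. tbrd-1, a bromodomain protein of spermatocytes, had 426, 360, 364 and 255 in Hydrogen peroxide and 43.2, 30.0, 66.6 and 24.3 in Ionizing radiation (2.30 ± 0.29, adjusted p = 5.8e-07). Its Sugar and Stress controls means were 364 and 373, close to the Hydrogen peroxide mean of 351. blanks, a testis protein that binds double-stranded RNA, had 1489, 1274, 1449 and 1357 in Hydrogen peroxide and 288, 418, 412 and 386 in Ionizing radiation (1.80 ± 0.21, adjusted p = 2.42e-07), and Sugar averaged 1420. Thus for both genes it was the Ionizing radiation arrays that lay apart from the unexposed ones (-2.35 and -1.82 against Sugar). fzo, the mitofusin of early spermatids, had 703, 668, 718 and 738 in Hydrogen peroxide, against 23.8, 266, 251 and 141 in Ionizing radiation (2.07 ± 0.34, adjusted p = 3.3e-05). The spermatocyte genes wuc (2.04), Rbp4 (1.82), twe, the meiotic Cdc25 phosphatase (1.24), nht, a testis TAF (1.04), and tbrd-2 (0.96) were called in the same direction. Of 18 measured genes of this set, which leaves out blanks, 7 were higher and 1 was lower, with a median of 0.88. These shares were 38.9% and 5.56%, against 4.98% and 4.91% over all genes, and for a set collected this way they are not a test. The counts were also 7 and 1 without Ionizing radiation replicate 1, with tbrd-3 called in place of nht. The lower gene was mia, another testis TAF (-0.72), whose arrays overlapped and whose call was lost with the mean over its probe sets (-0.18). The call of nht was lost without any 1 of Hydrogen peroxide replicates 1, 2 and 4 and Ionizing radiation replicates 1 and 3 (adjusted p = 0.0148 to 0.0414). For mia the same held without Hydrogen peroxide replicates 3 or 4 and Ionizing radiation replicates 2 or 4 (adjusted p = 0.0139 to 0.0291).

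The testis markers betaTub85D, dj and Mst84Dc did not follow. betaTub85D, the testis beta-tubulin, averaged 9398 ± 548 in Hydrogen peroxide and 9044 ± 1181 in Ionizing radiation (0.06, adjusted p = 0.731). dj, a sperm tail protein, averaged 8753 ± 1323 and 10412 ± 1753 in the same order (-0.25, adjusted p = 0.219). Mst84Dc averaged 34624 ± 3232 and 42972 ± 3427 (-0.31, adjusted p = 0.0227). It was not called, although its arrays lay lower in Hydrogen peroxide without overlap. The 12 testis markers hold genes whose products act in late sperm assembly and also some spermatocyte genes. Of these 12, 0 were called higher and 1, the sperm gene Mst98Cb (-0.64), was called lower. Their fold changes reached 1.14, in a gene that was not called. Summed over the 12 markers, signal was lower in Hydrogen peroxide by a narrow margin, at 174461 to 190869 against 191997 to 225787 in Ionizing radiation. That sum is led by the brightest genes and was not tested. Mst98Cb fell short of 1.5-fold without Ionizing radiation replicate 1 (-0.57) and without Hydrogen peroxide replicate 4 (-0.58).

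Many mitochondrial and proteasome subunits have a second gene copy whose name ends in L, T or R, and many of those copies are known from the testis. The subunit lists were split by that suffix, also after the values were seen, so the counts describe the split and do not test it. Of 28 measured copies 10 were called higher (35.7%, against 4.98% over all genes) and 0 lower (median 0.40). Of 78 standard subunits, respiratory and proteasome ones pooled, 1 was called higher (1.28%) and 2 lower (2.56%, against 4.91% over all genes), with a median of 0.14. ND-51L1, a copy of a complex I subunit, had 918, 796, 722 and 846 in Hydrogen peroxide and 301, 336, 305 and 316 in Ionizing radiation (1.28 ± 0.14, adjusted p = 7.14e-08). ND-51L2, another copy, averaged 816 ± 48.2 and 402 ± 83.8 in the same order (0.97), while the standard ND-51 showed 0.46, under the 1.5-fold limit. For the proteasome, the copy Prosalpha3T had 322, 307, 311 and 385 in Hydrogen peroxide and 118, 142, 112 and 140 in Ionizing radiation (1.15 ± 0.20, adjusted p = 8.93e-05), and the standard Prosalpha3 showed -0.17 (adjusted p = 0.29). The copy Rpt3R was higher (0.69) while Rpt3 stood at -0.51. The other called copies were UQCR-14L (0.81), ATPsynepsilonL (0.71), Prosbeta4R1 (0.71), ND-B14.5AL (0.65), COX5BL (0.65) and ATPsynCF6L (0.63). ND-B14.5A was the 1 standard subunit called higher (0.64). Without Ionizing radiation replicate 1, 9 copies were called (Prosbeta4R1 had an adjusted p of 0.0185), and with the 8 arrays alone 4 were. Those of the other calls that fell on leaving out an array were near the limits of the rule: ND-B14.5AL without Hydrogen peroxide replicate 4 or Ionizing radiation replicates 2 or 4 (adjusted p = 0.013 to 0.0164), Prosbeta4R1 also without Ionizing radiation replicate 2 (adjusted p = 0.0115), Rpt3R without Hydrogen peroxide replicate 3 (adjusted p = 0.0101), COX5BL without Ionizing radiation replicate 3 (0.58), and ND-B14.5A without Hydrogen peroxide replicate 4 (0.52) or Ionizing radiation replicates 3 or 4 (0.58 each).

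**Figure D3:**
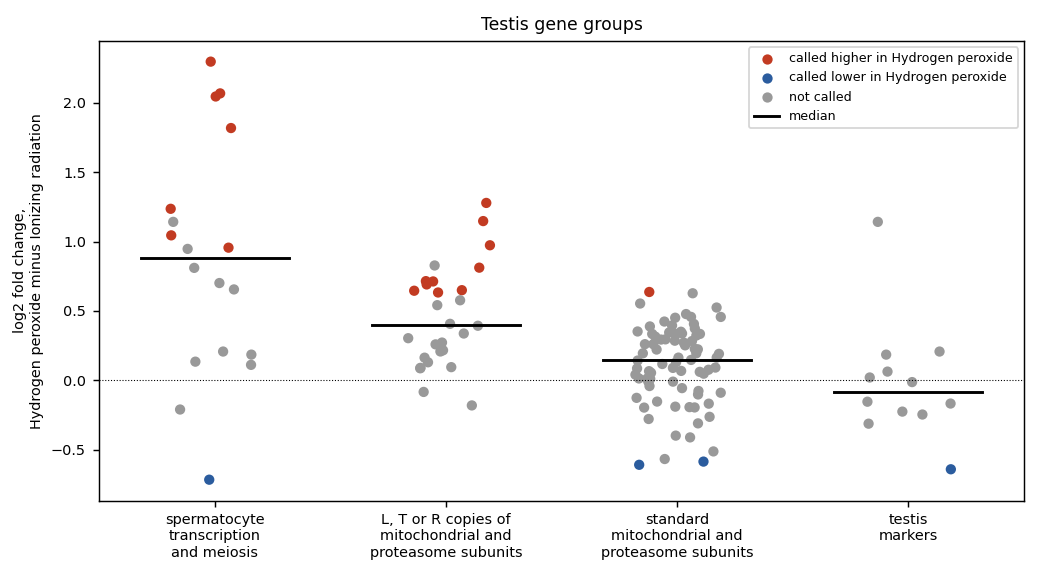
Each point is 1 gene, with its log2 fold change, Hydrogen peroxide minus Ionizing radiation, on the y axis, in 4 sets: spermatocyte genes (18), L, T or R copies (28), standard subunits (78) and testis markers (12). Black lines are medians of 0.88, 0.40, 0.14 and -0.08, and some spermatocyte genes are also testis markers.

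Many digestive enzymes were lower in Hydrogen peroxide, and 5 of the 15 largest decreases were among them (CG6295, Jon74E, CG18179, CG12374 and CG8562). Of 26 digestive serine proteases 11 were lower in Hydrogen peroxide and 1 higher (median -0.61), and of 19 gut carbohydrases 11 were lower and 2 higher (median -0.90). The lower shares were 42.3% and 57.9%, against 4.91% over all genes. Jon74E, a chymotrypsin-like protease of the midgut, had 1065, 365, 655 and 721 in Hydrogen peroxide and 10083, 8545, 6875 and 5127 in Ionizing radiation (-3.42 ± 0.20, adjusted p = 3.98e-14). Sugar averaged 22627 and Stress controls 43447, so both treatments lay below the unexposed flies and Hydrogen peroxide lay furthest below. CG6295 had 414, 37.3, 32.1 and 44.4 in Hydrogen peroxide and 1329, 2133, 1870 and 1346 in Ionizing radiation (-3.81 ± 0.32, adjusted p = 3.24e-10), and encodes a predicted lipase, with Hydrogen peroxide replicate 1 apart from the other 3. The proteases Jon65Aiv (-1.88), Ser8 (-1.73), Jon25Bii (-1.51) and CG18179 (-2.37), the carboxypeptidases CG12374 (-2.06) and CG8562 (-2.06), the maltases Mal-A6 (-1.81) and Mal-A7 (-1.21), the lysosomal mannosidase LManI (-1.16) and the amylase Amy-d (-1.06) were lower too. The arrays of LManI overlapped between the treatments. Amy-d averaged 10935 ± 1440 in Hydrogen peroxide and 22737 ± 2451 in Ionizing radiation, where Sugar was 19448. Without Ionizing radiation replicate 1, 11 proteases and 9 carbohydrases were called lower, and with the 8 arrays alone 5 and 2.

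A few digestive genes went the other way. The maltase Mal-B1 had 3262, 918, 2833 and 1886 in Hydrogen peroxide and 182, 245, 172 and 258 in Ionizing radiation (3.03 ± 0.26, adjusted p = 4.81e-10), against a Sugar mean of 2562. The serine protease Ser6 had 632, 341, 620 and 537 in Hydrogen peroxide and 132, 125, 133 and 113 in Ionizing radiation (1.76 ± 0.19, adjusted p = 4.11e-08), against 1726 in Sugar. For both, then, Ionizing radiation was the lower treatment, and for Ser6 both were below Sugar. Mal-B2 was above Sugar in both treatments, by 2.08 in Hydrogen peroxide and 1.02 in Ionizing radiation. The lysozyme LysX (3.14) and the chitinase Cht4 (2.47) were higher in Hydrogen peroxide than in Sugar (2.50 and 2.67), while Ionizing radiation was not separated from Sugar for either (-0.64 and 0.19, adjusted p = 0.165 and 0.781). LysX had 611, 965, 1111 and 618 in Hydrogen peroxide and 162, 44.5, 29.4 and 32.3 in Ionizing radiation. Members of the Jonah, trypsin, maltase and lysozyme families are close copies, and probe sets may read more than 1 of them. Summed over 7 midgut markers, all of them digestive enzymes, signal was 47895 to 82088 in Hydrogen peroxide and 129759 to 147747 in Ionizing radiation, and their part in these results was not tested.

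Junction genes of the gut wall were higher in Hydrogen peroxide. Tsp2A, Ssk, mesh and hoka encode the membrane proteins of the smooth septate junction, which seals the space between cells of the midgut, and were gathered after their values were seen. Tsp2A had 2593, 2803, 2967 and 2533 in Hydrogen peroxide and 854, 917, 919 and 951 in Ionizing radiation (1.54 ± 0.15, adjusted p = 1.12e-08). Ssk averaged 4165 ± 467 and 1442 ± 291 in the same order (1.52), mesh 6359 ± 414 and 2350 ± 405 (1.43), and hoka 4182 ± 93.4 and 1703 ± 112 (1.28). All 4 were higher in Hydrogen peroxide without overlap, and were also called without Ionizing radiation replicate 1 and with the 8 arrays alone. Sugar means of 1080, 1973, 1927 and 1955 lay near those of Ionizing radiation. mys, the beta-integrin that anchors cells to the matrix, had 2996, 3060, 2306 and 2142 in Hydrogen peroxide and 1157, 880, 895 and 813 in Ionizing radiation (1.45 ± 0.17, adjusted p = 2.66e-07), with Sugar between them at 1782. Of 16 genes of the pleated septate junction, the form found in ectodermal epithelia, 1 was higher (dlg1, 0.86), 2 were lower and the median was -0.25. These shares were 6.25% and 12.5%, against 4.98% and 4.91% over all genes. Another, dim probe set of dlg1 was not called (0.82, adjusted p = 0.0684).

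**Figure D4:**
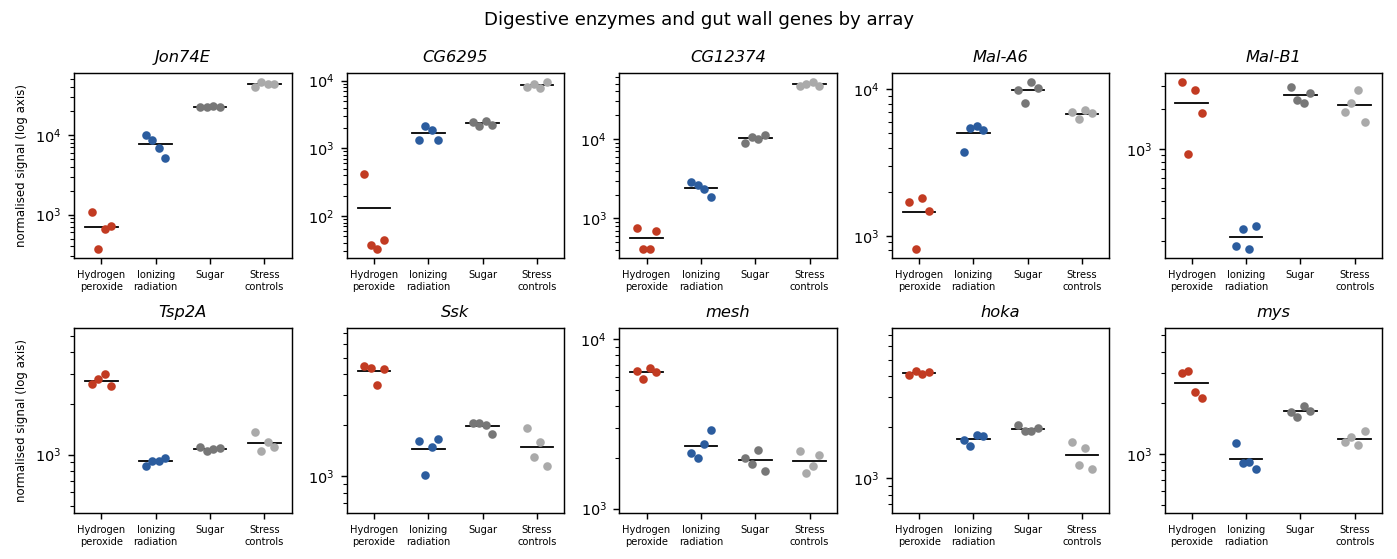
Each panel shows 1 gene, with the normalised signal on a log axis and 1 point per array for Hydrogen peroxide, Ionizing radiation, Sugar and Stress controls (4 arrays each), and a line at the mean. Hydrogen peroxide lies below Ionizing radiation for Jon74E, CG6295, CG12374 and Mal-A6, and above it for Mal-B1, Tsp2A, Ssk, mesh, hoka and mys.

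A few stress signaling genes were higher in Hydrogen peroxide. In the JNK and AP-1 list, 4 of 17 genes were higher (23.5%, against 4.98% over all genes) and 0 lower. The list median was 0.22, with 5 negative fold changes. Jra, the fly Jun, had 2439, 3080, 2650 and 3275 in Hydrogen peroxide and 1448, 1500, 1657 and 1926 in Ionizing radiation (0.79 ± 0.12, adjusted p = 1.79e-05). The transcription factor gene Ets21C (1.43) and the matrix protease gene Mmp2 (1.19) were called, and mys is the fourth. Ets21C overlapped between treatments, at 305, 428, 386 and 205 in Hydrogen peroxide and 22.3, 59.7, 153 and 236 in Ionizing radiation. The JNK phosphatase gene puc, a standard readout of the pathway, showed 0.63 but was not called (adjusted p = 0.0213). dome, the receptor of the JAK-STAT pathway, had 1023, 1196, 1135 and 1334 in Hydrogen peroxide and 446, 446, 377 and 489 in Ionizing radiation (1.34 ± 0.13, adjusted p = 1.16e-08) and was the only 1 of 10 JAK-STAT genes called. Another, dim probe set of dome was not called (107 in Hydrogen peroxide and 68.7 in Ionizing radiation, adjusted p = 0.231). The 4 JNK calls also stood without Ionizing radiation replicate 1, but with the 8 arrays alone 1 did. Outside the lists, and chosen for their size after values were seen, the caspase gene Damm (1.56) and the secreted phospholipase gene GIIIspla2 (1.61) were higher in Hydrogen peroxide. Their means were 1205 and 10541 in Hydrogen peroxide, 401 and 3622 in Ionizing radiation, and 396 and 1342 in Sugar.

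Few immune genes were called. Of 28 recognition and NF-kappaB genes 2 were higher and 2 lower (7.14% each), near the 4.98% and 4.91% over all genes. Rel, the NF-kappaB factor of the Imd pathway, averaged 4551 ± 430 in Hydrogen peroxide and 2892 ± 693 in Ionizing radiation (0.67). pirk, an inhibitor of the same pathway, averaged 281 ± 103 and 99.5 ± 41.1 (1.19). Its arrays overlapped, with the lowest Hydrogen peroxide array at 134 and the highest Ionizing radiation array at 142. The peptidoglycan recognition gene PGRP-SB1 (-1.79) and the Toll ligand gene spz (-0.98) were lower in Hydrogen peroxide. Without Ionizing radiation replicate 1 Rel fell short of 1.5-fold (0.52), leaving 1 higher. With the 8 arrays alone 0 were higher and 1, spz, was lower. Of 19 antimicrobial and Bomanin peptides 0 were higher and 1 lower (5.26%, also near the background): Drs, the antifungal drosomycin, had 3391, 3250, 2948 and 2218 in Hydrogen peroxide and 12219, 4947, 5819 and 5810 in Ionizing radiation (-1.20 ± 0.28, adjusted p = 0.00269). Ionizing radiation replicate 1 was the high array, and without it the change was -0.91 (adjusted p = 0.0231), so Drs was then not called. It was not called without Hydrogen peroxide replicate 4 either (-1.07, adjusted p = 0.0141). The same array was the highest for Mtk (4157) and DptB (4890), which were not called.

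Some blood cell genes were lower in Hydrogen peroxide. Hml, which encodes hemolectin, a clotting protein of blood cells, had 916, 551, 773 and 742 in Hydrogen peroxide and 1644, 1540, 1236 and 1307 in Ionizing radiation (-0.92 ± 0.13, adjusted p = 2.67e-06). Sugar averaged 1502, so Hydrogen peroxide was the treatment below the unexposed flies. The phagocytosis receptor gene NimC1 (-0.77) and the peroxidasin gene Pxn (-1.16) were lower as well. Of 6 blood cell markers 3 were lower (50%, against 4.91% over all genes) and 0 higher. Their summed signal was 2233 to 2899 in Hydrogen peroxide and 3864 to 4860 in Ionizing radiation. NimC1 and Pxn lost their calls without Ionizing radiation replicate 1 (adjusted p = 0.0108 and 0.0186), which left Hml, and with the 8 arrays alone 0 of the 6 were called (Hml had an adjusted p of 0.0132). NimC1 also lost it without Hydrogen peroxide replicates 3 or 4 or Ionizing radiation replicate 4 (adjusted p = 0.0121 to 0.0298), and Pxn without Hydrogen peroxide replicates 2 or 3 or Ionizing radiation replicate 2 (adjusted p = 0.0117 to 0.0277). In the list of melanization and blood cell genes, which holds those 3, the serpin gene Spn28Dc was the 1 higher gene (0.93). The receptor gene NimC4 (-1.47) and asrij, known from blood cell precursors (-1.47), chosen after their values were seen, lay above Sugar in Ionizing radiation (2.13 and 1.56). In Hydrogen peroxide they were not separated from it (0.67 and 0.10, adjusted p = 0.0531 and 0.568).

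Glutathione S-transferases couple glutathione to reactive compounds. Of 36 genes 4 were higher in Hydrogen peroxide, 3 were lower and 29 were not called. The shares were 11.1% higher and 8.33% lower, against 4.98% and 4.91% over all genes. GstD5 had 2532, 2458, 2019 and 1807 in Hydrogen peroxide and 447, 323, 241 and 463 in Ionizing radiation (2.49 ± 0.28, adjusted p = 7.5e-08), where Sugar averaged 386. GstD2 had 4109, 2486, 3628 and 3646 in Hydrogen peroxide and 1297, 837, 1251 and 1969 in Ionizing radiation (1.39 ± 0.18, adjusted p = 1.13e-06), and both treatments were above Sugar (3.32 and 1.94). GstZ2 (1.26) and GstD4 (1.10) were the other higher genes. GstE6 went the other way, with 2337, 1845, 2053 and 2186 in Hydrogen peroxide and 9935, 7232, 7517 and 8052 in Ionizing radiation (-1.93 ± 0.11, adjusted p = 1.32e-14), and Sugar lay between at 3493. The microsomal Mgstl (-1.02) and GstE5 (-0.84) were also lower. GstD1, the most studied member, averaged 39405 ± 1131 in Hydrogen peroxide and 40783 ± 2912 in Ionizing radiation (-0.05, adjusted p = 0.736). The D cluster genes are close copies, so a probe set of 1 may read others.

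Of 24 antioxidant enzyme genes 0 were higher and 1 lower, with a median of 0.01. Cat, which encodes catalase, the enzyme that breaks down hydrogen peroxide, had 18645, 17940, 23843 and 24227 in Hydrogen peroxide and 17603, 19395, 20678 and 19858 in Ionizing radiation (0.12, adjusted p = 0.49). The called gene was Srx, sulfiredoxin, which repairs overoxidised peroxiredoxins (-0.59, adjusted p = 0.0092). It was at the edge of both limits and lost its call without Ionizing radiation replicates 1, 2 or 3 or Hydrogen peroxide replicates 1, 2 or 4 (adjusted p = 0.0167 to 0.0494). Of 80 cytochrome P450 genes, monooxygenases of toxin and hormone metabolism, 5 were higher and 7 lower. These shares, 6.25% and 8.75%, were near the 4.98% and 4.91% over all genes. The counts were 4 and 3 without Ionizing radiation replicate 1, and 2 and 0 with the 8 arrays alone. Cyp6a8 averaged 1211 ± 119 in Hydrogen peroxide and 574 ± 40.2 in Ionizing radiation (1.03), and Cyp28a5 1604 ± 57.6 and 827 ± 148 (0.94). Of 33 UDP-glycosyltransferases 2 were higher and 3 lower (6.06% and 9.09%), and 1 and 2 were without Ionizing radiation replicate 1.

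Among genes picked after their values were seen were 3 of lipid and iron transport. apolpp, the apolipoprotein of the fly lipid carrier, had 5127, 3246, 3025 and 2741 in Hydrogen peroxide and 9736, 10596, 10815 and 8388 in Ionizing radiation (-1.51 ± 0.14, adjusted p = 3.24e-09), both under the Sugar mean of 18214. The transferrin gene Tsf1 averaged 5258 ± 1836 and 15276 ± 2077 in the same order (-1.58). LpR1, a receptor of that lipid carrier, was higher instead, with 5711, 10192, 6355 and 6448 in Hydrogen peroxide and 1391, 2062, 2179 and 1865 in Ionizing radiation (1.90 ± 0.18, adjusted p = 4.87e-09). Of 37 genes of energy stores and fasting 4 were higher and 3 lower (10.8% and 8.11%, against 4.98% and 4.91% over all genes). The counts were 4 and 2 without Ionizing radiation replicate 1, and 0 and 0 with the 8 arrays alone. Among the called genes, the glycogen synthase gene Glys was higher (0.91) and the perilipin gene Lsd-1 was lower (-1.04). With the 8 arrays alone their adjusted p values were 0.0133 and 0.0233. Both genes were below Sugar in both treatments. Against Sugar, Lsd-1 stood at -2.86 in Hydrogen peroxide and -1.82 in Ionizing radiation, and Glys at -0.50 and -1.42 in the same order. Men-b, a malic enzyme that makes NADPH, was the 1 of 7 genes of NADPH supply called, and was lower (-1.17). The 3 fat body markers measured were not called.

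A few autophagy genes were higher in Hydrogen peroxide. Of 21 genes 4 were higher and 0 lower (median 0.11): Atg101 (1.14) and Atg1 (0.64), parts of the kinase complex that starts autophagy, Atg18b (0.96) and Atg2 (0.73). Atg101 had 1766, 2062, 1883 and 1870 in Hydrogen peroxide and 582, 1141, 812 and 911 in Ionizing radiation. Another probe set of Atg101 was not called (668 in Hydrogen peroxide and 295 in Ionizing radiation, adjusted p = 0.0373). With the 8 arrays alone Atg101 was the 1 autophagy gene called. Of the 4, Atg101 alone was called without Ionizing radiation replicate 1, where Atg1 stood at 0.57, Atg2 at 0.55 and Atg18b at 0.72 (adjusted p = 0.03, 0.00771 and 0.0408). Atg1 also lost its call without any 1 of Hydrogen peroxide replicates 1 to 3 or Ionizing radiation replicates 2 or 3 (adjusted p = 0.0107 to 0.0387), and Atg18b without Hydrogen peroxide replicates 2 to 4 or Ionizing radiation replicate 3 (adjusted p = 0.0101 to 0.0308). All 4 genes lay above Sugar in both treatments, Atg101 least so in Ionizing radiation (0.55, adjusted p = 0.013).

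Muscle and eye genes gave a mixed picture. Act88F, the actin of the indirect flight muscles, had 625, 667, 564 and 1923 in Hydrogen peroxide and 6135, 4828, 3219 and 4104 in Ionizing radiation (-2.38 ± 0.24, adjusted p = 8.93e-09). fln, flightin of the same muscles, had 1236, 1451, 1371 and 1084 in Hydrogen peroxide and 415, 615, 424 and 478 in Ionizing radiation (1.35 ± 0.21, adjusted p = 1.32e-05). So 2 genes of 1 muscle type moved in opposite directions, and of 11 muscle markers 4 were lower (Act88F, Prm, TpnC41C and TpnC73F) and 1 higher, with summed signals that overlapped (53421 to 60001 in Hydrogen peroxide, 57658 to 72929 in Ionizing radiation). TpnC73F (-0.64) lost its call without Ionizing radiation replicate 1 (-0.50), and also without replicates 2 or 3 or Hydrogen peroxide replicates 1 to 3 (adjusted p = 0.0156 to 0.0346). TpnC41C fell short of 1.5-fold without Hydrogen peroxide replicate 4 (-0.54) or Ionizing radiation replicate 3 (-0.58). Pdh, the photoreceptor dehydrogenase of the visual cycle, had 2536, 2291, 3106 and 2167 in Hydrogen peroxide and 481, 741, 740 and 568 in Ionizing radiation (1.94 ± 0.14, adjusted p = 2.02e-11), both below Sugar at 5003, while 0 of 6 photoreceptor markers were called. Arc1, a neuronal gene with a capsid-like product, was lower (-1.33, adjusted p = 0.00968). Its arrays overlapped, and it lost its call on leaving out any 1 of the 8 arrays other than Ionizing radiation replicate 1 (adjusted p = 0.0119 to 0.048). The clock gene tim was lower (-1.02), but its other probe sets were not called (0.44 and -0.96, adjusted p = 0.466 and 0.0249), nor was their mean (-0.51), and the hour of sampling was not given in the sources used here.

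The brightest of the strongly changed genes had no role known from the files. CG13947 had 46004, 61844, 51201 and 59265 in Hydrogen peroxide and 6275, 4750, 4947 and 3932 in Ionizing radiation (3.46 ± 0.17, adjusted p = 1.43e-15). Sugar averaged 10501, between the treatments. CG15043 had 13181, 13910, 14013 and 13218 in Hydrogen peroxide and 1755, 1751, 1765 and 1943 in Ionizing radiation (2.89 ± 0.15, adjusted p = 3.14e-15), with Sugar at 1910. kek5, a kekkon family receptor gene (2.43), cocoon (2.43), CG14931 (2.42), CG7907 (2.41), CG34434 (2.23) and CG9899 (2.07) completed, with genes given above, the 15 largest increases. For kek5, cocoon, CG7907, CG34434 and CG9899 Ionizing radiation lay below Sugar, with log2 fold changes of -2.16 to -1.60. Fst, known for its induction by cold, had 7866, 9282, 6954 and 6125 in Hydrogen peroxide and 1396, 1161, 3100 and 3823 in Ionizing radiation (1.81 ± 0.34, adjusted p = 0.000238).

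Among the 15 largest decreases were also regulators. escl, a relative of the Polycomb protein esc, had 605, 501, 678 and 485 in Hydrogen peroxide and 2507, 2409, 2806 and 2817 in Ionizing radiation (-2.15 ± 0.11, adjusted p = 1.43e-15), and its Sugar mean was 608. slou, a homeobox gene of muscle founder cells, had 44.6, 23.5, 25.7 and 47.5 in Hydrogen peroxide and 482, 250, 360 and 389 in Ionizing radiation (-2.45 ± 0.37, adjusted p = 1.32e-05), against 64.4 in Sugar. Both were near Sugar in Hydrogen peroxide and above it in Ionizing radiation. CG3448 (-2.44) shared that pattern (0.24 against Sugar in Hydrogen peroxide and 2.68 in Ionizing radiation). CG5391 (-2.14) lay above Sugar by 1.01 in Hydrogen peroxide (adjusted p = 0.0266) and by 3.15 in Ionizing radiation. CG15263 (-3.38), CG34330 (-2.11) and CG6484 (-2.03) lay below Sugar in Hydrogen peroxide (log2 fold changes of -4.30, -1.98 and -2.27). Another, dim probe set of CG6484 was not called (-0.34, adjusted p = 0.458). The vesicular transporter gene prt (-2.02) and the peptide hormone gene CCHa1 lay just outside the 15. CCHa1 had 264, 187, 164 and 228 in Hydrogen peroxide and 937, 968, 825 and 1078 in Ionizing radiation. Both genes were above Sugar in Ionizing radiation (2.11 and 2.38).

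**Figure D5:**
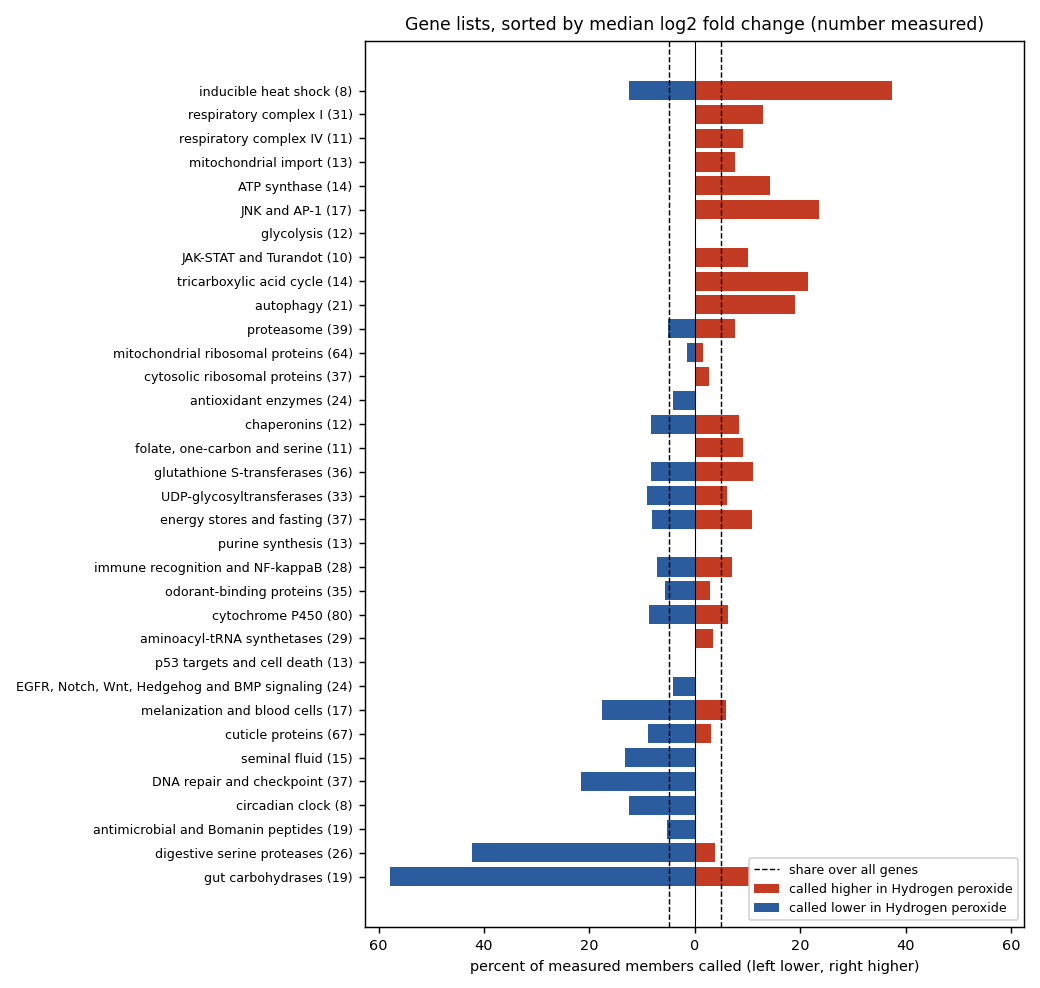
Bars give the percent of measured members called in each gene list of 8 or more measured genes (marker lists and sets gathered later are left out), to the right in red for higher and to the left in blue for lower in Hydrogen peroxide, with lists sorted by median log2 fold change and the number measured in brackets. Dashed lines mark the shares over all genes, 4.98% higher and 4.91% lower, and digestive proteases and gut carbohydrases reach furthest left.

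In other processes most genes were not called. For the counts below, the shares over all genes were 4.98% higher and 4.91% lower. Of 13 purine synthesis and 12 glycolysis genes 0 were called. Of 37 cytosolic ribosomal protein genes 1 was higher and 0 lower, and of 64 mitochondrial ones 1 was higher and 1 lower. Of 29 aminoacyl-tRNA synthetases 1 was higher, of 11 folate and one-carbon genes 1 was higher, of 13 mitochondrial import genes 1 was higher, and of 3 complex II genes 0 were called. Complex I had 4 of 31 higher (12.9%, median 0.31), 3 of them L copies. Complexes III and IV had 1 of 7 (14.3%) and 1 of 11 (9.09%), and ATP synthase had 2 of 14 (14.3%), all L copies. Call counts leave out small shifts in these lists: 28 of 31 complex I genes had positive fold changes, and their summed signal was 202060 to 213425 in Hydrogen peroxide and 159930 to 182769 in Ionizing radiation. Summed signals were also without overlap, and higher in Hydrogen peroxide, for complex III (118718 to 127520 against 103126 to 115270), complex IV (109008 to 112783 against 92821 to 95738) and ATP synthase (110786 to 129698 against 97028 to 108440). The same held for the tricarboxylic acid cycle (135034 to 141231 in Hydrogen peroxide and 112678 to 126608 in Ionizing radiation, 11 of 14 genes positive) and, by a narrow margin, glycolysis (107090 to 114656 in Hydrogen peroxide and 94688 to 106266 in Ionizing radiation, 10 of 12 positive). A sum is led by the brightest genes, and these sums were not tested. Of 39 proteasome genes 3 were higher (7.69%), all of them copies, and 2 lower (5.13%), Prosbeta7 and Rpn12. Their summed signal went the other way, lower in Hydrogen peroxide without overlap (114153 to 118193 against 124215 to 136589), and was not tested either. Of the 39 genes 24 had positive fold changes. Of 14 genes of the tricarboxylic acid cycle 3 were higher (21.4%), and 0 were called without Ionizing radiation replicate 1. Of 12 chaperonin genes Hsp60B was higher (0.67) and CCT5 lower (-0.67), and Hsp60B fell short of 1.5-fold without Ionizing radiation replicate 1 (0.56). Of 24 genes of EGFR, Notch, Wnt, Hedgehog and BMP signaling 1 was lower, of 8 clock genes 1, tim, was lower, of 2 Arc genes 1 was lower, and of 3 metallothioneins 1 was lower. Of 67 cuticle protein genes 2 were higher (2.99%, 1 gene without Ionizing radiation replicate 1) and 6 lower (8.96%). Of 35 odorant-binding proteins 1 was higher (2.86%) and 2 lower (5.71%), and of 15 seminal fluid genes 2 were lower (13.3%). Of 10 accessory gland markers 1 was lower, of 8 neuron markers 1 was higher, and of 8 female genes 1 was lower. Without Ionizing radiation replicate 1 the single calls in the metallothionein, neuron and signaling lists were lost, and mitochondrial ribosomal proteins had 3 higher and 0 lower.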

How the data were processed

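RNA of 35 samples had been hybridised to Affymetrix Drosophila genome arrays, and the deposited values are MAS5 signal intensities, made by the authors with 1 value per probe set and array. No source used here states the MAS5 version, and the values differ from the multi-chip model of the published analysis. The labels give 6 ug of RNA per array. Of 14010 probe sets, 44 controls were left out and 13966 were tested. Names came from the platform annotation updated through RefSeq: 12443 probe sets had 1 gene, 326 several and 1197 none, and 49 kept an old name. A few unmatched ones were named from a supplementary table held in part. The probe set with the highest mean stood for each of 10845 genes.

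Signals of all 35 arrays were quantile normalised and fitted with limma 3.58.1 in R 4.3.3 as log2(signal + 38.9), the 10th percentile, with 8 group means and 27 residual degrees of freedom. The script was tested on simulated data. The number of arrays, 4 per group, limits precision, and reads or depth do not apply. The contrasts against Sugar and Stress controls came from the same model. Named genes were, in each direction, the 15 with the largest change among called genes without overlap and with a higher group above the 25th percentile (a signal of 122), then up to 4 called members per list and direction, then genes of the published text and members a list needed. Genes picked after their values were seen are marked so. The members and all gene lists were chosen with earlier results of these data known. The replicate numbers of the titles are not said to pair vials, so the main model held no block. Residuals of same-numbered arrays correlated at -0.0885 to 0.0858, and those of differently numbered arrays at -0.063 to 0.132. So few arrays cannot exclude a pairing. Alternatives were other scaling, pseudocounts, filters, array sets, tests, the block and leaving out each array.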

Additional observations from a re-analysis of the deposited data

Results flagged for a closer look

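In 306 groups of 4 arrays (149 named genes and 4 control measures in both treatments), 27 held 1 array far from the other 3 by Dixon's criterion, where chance gives about 1 in 20. Ionizing radiation replicate 1 was that array in 12 of them, and its part in each result was not tested beyond leaving it out.

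Hydrogen peroxide replicate 1 was the high array for CG6295 (414, others 32.1 to 44.4). Hydrogen peroxide replicate 1 was the low array for bcn92 (895, others 1124 to 1173). Hydrogen peroxide replicate 3 was the low array for PolZ1 (260, others 379 to 405) and Ssk (3475, others 4313 to 4500). Hydrogen peroxide replicate 4 was the high array for Hsp70 (3088, others 2470 to 2554) and Act88F (1923, others 564 to 667). Hydrogen peroxide replicate 4 was the low array for Hsc70-5 (1245, others 2371 to 2404), dj (6796, others 9112 to 9648) and Jon25Bii (36.6, others 314 to 350). Ionizing radiation replicate 1 was the high array for CCT5 (3688, others 2978 to 3060), Mmp2 (98.6, others 37.3 to 39.1), Glys (1399, others 978 to 1037), the actin 3′ to 5′ ratio (7.44, others 1.79 to 1.89), the Gapdh ratio (3.72, others 2.18 to 2.31), the eIF-4a ratio (8.62, others 2.73 to 3.06) and the 18S control signal (6936, others 554 to 770). Ionizing radiation replicate 1 was the low array for tbrd-2 (224, others 285 to 295), Mal-A6 (3741, others 5258 to 5602), dlg1 (303, others 566 to 608), Atg2 (1170, others 1908 to 2001) and TpnC41C (4185, others 6162 to 6437). Ionizing radiation replicate 2 was the high array for GstZ2 (892, others 683 to 712). Ionizing radiation replicate 2 was the low array for CG7907 (13.4, others 74.5 to 81.6). Ionizing radiation replicate 3 was the low array for twe (128, others 168 to 173). Ionizing radiation replicate 4 was the high array for CG15043 (1943, others 1751 to 1765). Ionizing radiation replicate 4 was the low array for Jon65Aiv (16381, others 21190 to 21576) and CG18179 (344, others 497 to 525).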

How the results depend on the processing

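The counts of 540 higher and 533 lower genes stayed within 1.5 times under array scaling, both other pseudocounts, the filter on dim probe sets, the 19 stress arrays, the nested F-test, the mean over probe sets and each left-out array (474 to 518 higher and 445 to 558 lower). With the 8 arrays alone in the model the counts were 213 and 175, of which 203 and 164 were among the 540 and 533, and with quantile normalisation of those 8 arrays alone they were 203 and 170. These fits have 6 residual degrees of freedom. With the replicate number as a block, which leaves 3, the counts were 23 and 22, and all of these were among the 540 and 533. Whether the numbers pair vials is not stated in the sources used here. No called gene changed direction in any alternative except 4 with the mean over probe sets, none of them named. Of 132 named and called genes or probe sets, 85 were also called with the 8 arrays alone, 30 with the block, and 117 to 126 with 1 array left out. Signal near background limits the dim genes, whose fold changes depend on the pseudocount.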
